A study of Mus musculus with 32 samples.

Results

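The genes described here encode the histone lysine methyltransferases and demethylases whose symbols begin with Kmt, Kdm, Setd or Nsd followed by a number. A gene was taken when its symbol matched this rule in the gene tables of both leukemic cell types, which gave 37 of the 23620 genes that both tables list. Kmt2a was left out because MLL, the human counterpart, supplies part of the transgene. Binding of the RNA-binding protein IGF2BP3 to the transcripts of these genes was measured by eCLIP, in which RNA crosslinked to a protein is immunoprecipitated and sequenced, in mouse cells that carry MLL-Af4. MLL-Af4 was introduced with a retrovirus (MSCV-MLL-FLAG-Af4) and selected with G418, and all groups carry it. The Lin- cells were lineage-depleted bone marrow cells in culture, and the CD11b+ cells were selected on magnetic columns from splenic tumors of leukemic mice, although the names of the eCLIP libraries of both cell types begin with bm. The eCLIP libraries were made from WT/MLL-Af4 cells, 6 for Lin- (replicates 1 to 3 biological, 4 to 6 technical) and 4 for CD11b+ (replicates 1 and 2 biological, 3 and 4 technical), each cell type with as many size-matched input libraries. RNA-seq was made from 3 WT/MLL-Af4 and 3 Igf2bp3-deleted (I3KO) MLL-Af4 samples of each cell type. I3KO mice carry a homozygous germline deletion of exon 2 of Igf2bp3. Only the authors' mean over the libraries of a table (both genotypes) was used from these RNA-seq data. The labels do not say which technical replicate belongs to which biological one.

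Lysine methyltransferases transfer methyl groups from S-adenosylmethionine to lysines of histone tails. The KMT2 and SETD1 enzymes act on lysine 4 of histone H3 at promoters and enhancers, NSD1, NSD2, NSD3 and SETD2 act on lysine 36 of histone H3, and the KMT5 enzymes act on lysine 20 of histone H4. The demethylases remove these marks, either as flavin-dependent amine oxidases (KDM1A and KDM1B) or as JmjC dioxygenases (the other KDM families). MLL itself is the founding member of the KMT2 family, and Kmt2c, Kmt2d, Kdm6a, Nsd1 and Setd2 are recurrently mutated in human cancers. IGF2BP3 is an oncofetal RNA-binding protein that binds messenger RNA and alters its stability and translation.

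The size-matched input libraries gave the background. The study's methods describe them as a small share of each sample, taken once the immunoprecipitation was done. After removal of peaks that overlap an input peak, the 6 Lin- libraries held between 4040 and 10042 peaks and the 4 CD11b+ libraries between 7085 and 10054. All 6 markers of hematopoietic progenitors were higher in the Lin- table (Kit at a mean of 6974 normalized counts against 673, Flt3 at 9396 against 389.7). Of the 5 myeloid markers, the 4 with values reported here for both tables were all higher in CD11b+, led by Lyz2 at 72146 against 20990. The 2 tables were normalized separately. Itgam, the gene of CD11b itself, had a mean of 17.0 in the CD11b+ table, which goes against the label, and its Lin- level was not analysed here. Of the 9 markers of other cells reported here with a value in both tables, 3 were higher in CD11b+, led by Hba-a1 (1268) and Cd79a (146), and 6 were higher in Lin-, led by Itga2b (1922), Nkg7 (990) and Pf4 (393). The part of these cells in the results was not tested. Lin- replicates 2 and 5 stood apart from the other Lin- libraries in the location of their peaks, and values are given for each library for that reason. Igf2bp3 had a mean of 2041 in the Lin- table and 1355 in the CD11b+ table.

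Transcripts of most of the 37 genes carried IGF2BP3 peaks. In Lin- cells 29 of the 37 had a peak in at least 1 library, and in CD11b+ cells 26 of 37, where 29.5% of all genes in both tables had one in Lin- and 27.8% in CD11b+. These genes are also well expressed, with a median of the authors' mean normalized count of 3209 in Lin- and 1377 in CD11b+ against 54.7 and 47.3 over all genes of the tables. Among genes at a mean of at least 1000, 76.5% had a peak in Lin- and 68.4% in CD11b+, and 29 of 31 and 22 of 24 of the methyltransferases and demethylases did. With a gene span of at least 20 kb required as well, the background was 78.8% in Lin- and 82.6% in CD11b+, against 26 of 28 and 19 of 21, a smaller distance than over all genes. A peak in every biological library was found for 19 genes in Lin- and 22 in CD11b+, where 7.73% and 11.1% of all genes had one. The peaks were of modest size, with a median of 5 reads in Lin- (range 3 to 31) and 7 in CD11b+ (range 3 to 62), as the peak names in the deposited lists give them.

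**Figure D1:**
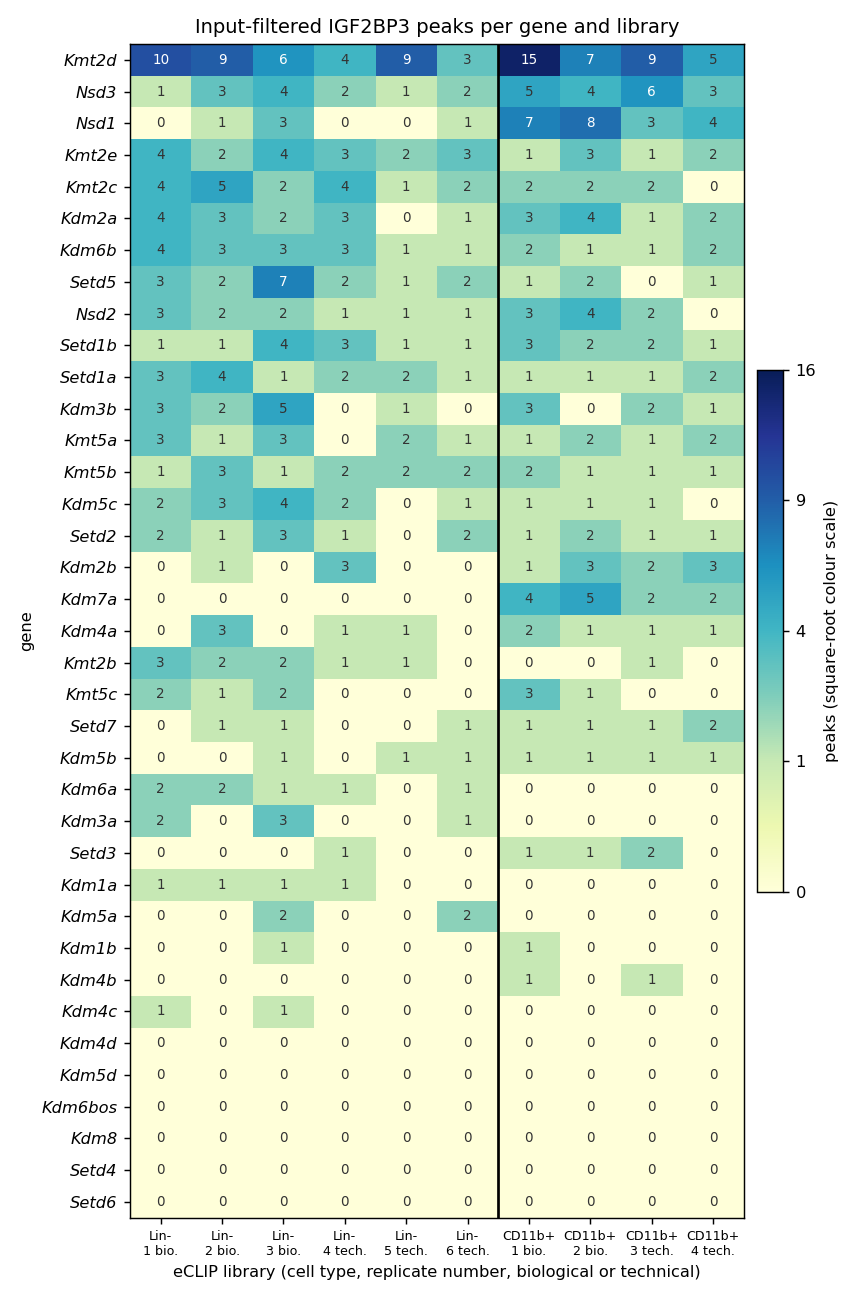
Number of input-filtered IGF2BP3 peaks on each of the 37 genes (rows, ordered by their total) in each eCLIP library (columns, bio. for biological and tech. for technical replicates), with the number printed in the cell. Kmt2d is at 3 to 10 peaks in the Lin- libraries and 5 to 15 in the CD11b+ libraries, Kdm7a has peaks in all 4 CD11b+ libraries and in none of the 6 Lin- libraries, and the bottom 6 rows are 0 throughout.

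The KMT2 and SETD1 genes were all bound in both cell types (6 of 6). They held 58 of the 169 merged regions in Lin- and 41 of the 121 in CD11b+. A merged region is the union of overlapping peaks of 1 cell type on 1 strand. Kmt2d, the enhancer methyltransferase MLL4, led both lists. It had 10, 9, 6, 4, 9 and 3 peaks in Lin- replicates 1 to 6 and 15, 7, 9 and 5 peaks in CD11b+ replicates 1 to 4. These made 25 regions in Lin- (14.8% of all regions on the 37 genes) and 21 in CD11b+ (17.4%). Every library had at least 3 peaks on it, and the ranges of the cell types overlapped. Its mean RNA-seq level was also the highest of the 37, at 16161 normalized counts in Lin- and 6947 in CD11b+, and its exons are the longest, at 19.8 kb. Kmt2c, its closest relative, had 4, 5, 2, 4, 1 and 2 peaks in the Lin- libraries and 2, 2, 2 and 0 in the CD11b+ libraries. Kmt2e, a KMT2 relative with weak or no catalytic activity, had 4, 2, 4, 3, 2 and 3 peaks in Lin- and 1, 3, 1 and 2 in CD11b+. Kmt2b, which methylates promoters, had 3, 2, 2, 1, 1 and 0 peaks in Lin- and only 1 peak in CD11b+, in technical replicate 3. Setd1a and Setd1b, the catalytic subunits of the SET1 complexes, had 4 and 7 regions in Lin- and 4 and 5 in CD11b+.

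Kmt2d had 3′ UTR regions in CD11b+ alone, while other regions overlapped between the cell types. The gene lies on the minus strand of chr15:98831669-98871204 (GRCm38/mm10). Its Lin- regions had their strongest peak in introns 17 times and in coding exons 8 times, with none in the 3′ UTR. In CD11b+, 7 were in introns, 10 in coding exons and 4 in the 3′ UTR, and 1 of these 3′ UTR regions (chr15:98833946-98834043) was called in all 4 CD11b+ libraries, with 23, 9, 17 and 8 reads. It was called in none of the Lin- libraries. A coding region at chr15:98845119-98845199 was called in 4 Lin- libraries and, as chr15:98845122-98845217, in 3 CD11b+ libraries. Of the 31 regions that overlapped between the cell types over all members, Kmt2d held 6.

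**Figure D2:**
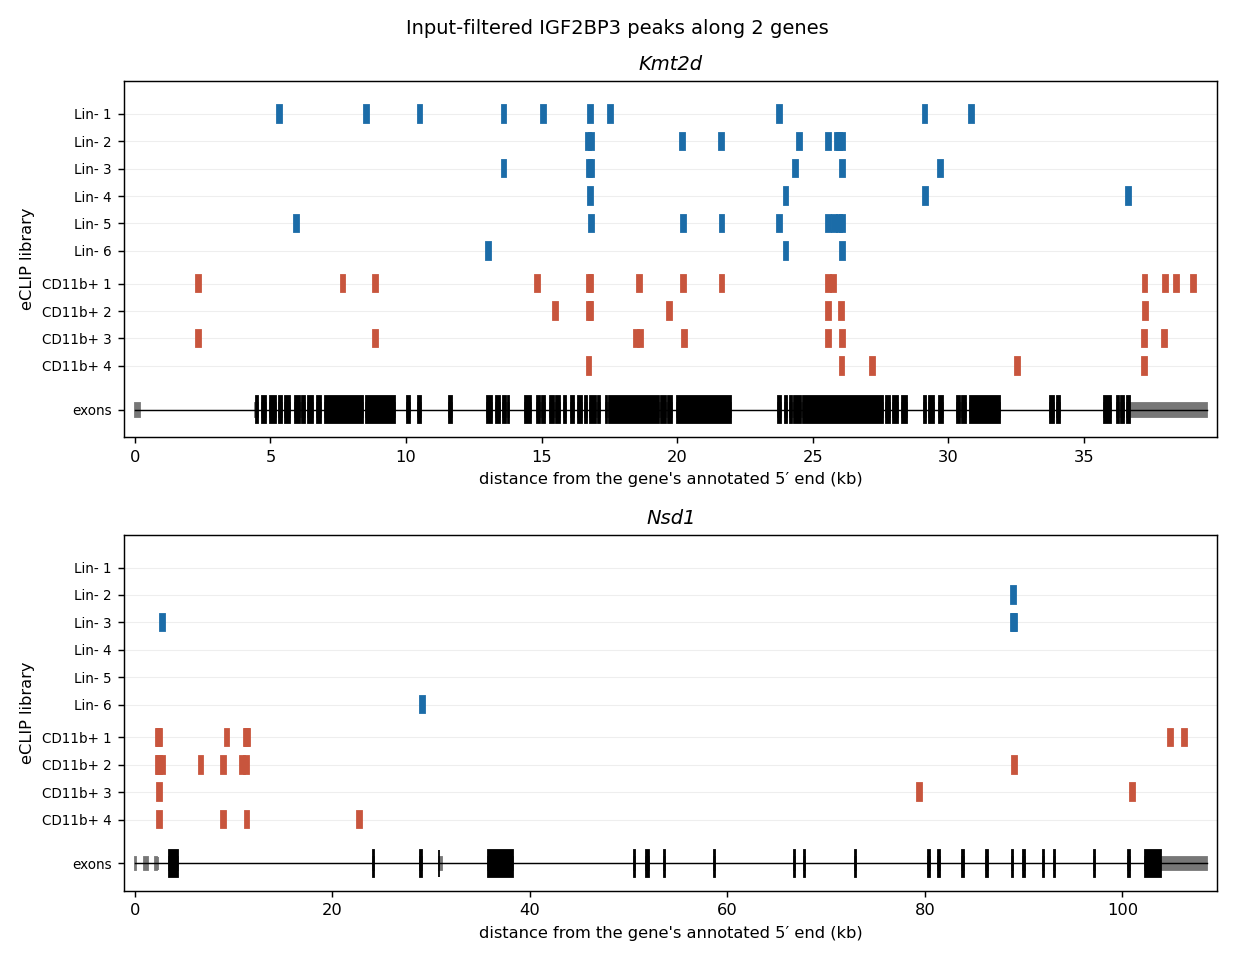
Input-filtered IGF2BP3 peaks (blue for Lin-, red for CD11b+) along Kmt2d and Nsd1, by distance in kb from the annotated 5′ end of the gene, 1 row for each eCLIP library, with coding exons as tall black boxes and untranslated exons as low grey boxes. Marks are drawn wider than the narrowest peaks so that they can be seen. Kmt2d has peaks in every library and 3′ UTR peaks in the CD11b+ rows alone, and Nsd1 has 3 to 8 peaks in each CD11b+ row and 0 to 3 in each Lin- row.

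The methyltransferases of lysine 36 of histone H3 were bound in both cell types as well (4 of 4), with 25 regions in Lin- and 33 in CD11b+. Nsd1 had 0, 1, 3, 0, 0 and 1 peaks in the Lin- libraries and 7, 8, 3 and 4 in the CD11b+ libraries, that is 4 regions against 14. Scaled to 1000 peaks of the library, the biological replicates averaged 0.148 in Lin- and 0.809 in CD11b+, and the 2 groups did not overlap. Its mean level was 6856 in Lin- and 4035 in CD11b+. In CD11b+ 8 of the 14 Nsd1 regions lay at the start of the gene (chr13:55211876-55220945), where 1 region in the 5′ UTR (chr13:55212049-55212122) was called in all 4 libraries, with 11, 9, 14 and 8 reads. Nsd3, a relative of Nsd1 that is amplified in some tumors, had 1, 3, 4, 2, 1 and 2 peaks in Lin- and 5, 4, 6 and 3 in CD11b+, with 11 regions in each. Nsd2, the enzyme that is activated by a translocation in multiple myeloma, had 6 regions in each cell type. Setd2, which trimethylates lysine 36 during transcription, had 2, 1, 3, 1, 0 and 2 peaks in Lin- and 1, 2, 1 and 1 in CD11b+.

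The KMT5 genes, which encode the methyltransferases of lysine 20 of histone H4, were bound in both cell types (3 of 3). Kmt5a, the enzyme that adds the first methyl group there, carried the peak with the most reads of all peaks on the 37 genes. This region in its 3′ UTR (chr5:124460774-124460842) held 56, 60, 62 and 40 reads in CD11b+ replicates 1 to 4, with a smallest CLIPper p of 3.3e-70. Lin- cells had a region at the same place, called in 3 libraries after the input filter. In the 2 others where it had been called, Lin- replicates 1 and 4, the filter removed it (25 and 8 reads), and it overlapped a peak of 3 reads in the Lin- input replicate 4. Those were the only peaks on the 37 genes that the filter removed. Kmt5b had peaks in all 10 libraries, and Kmt5c in 3 Lin- and 2 CD11b+ libraries, the biological ones in each case. Among the other SETD genes, Setd5, a chromatin regulator mutated in neurodevelopmental disorders, had 3, 2, 7, 2, 1 and 2 peaks in Lin- and 1, 2, 0 and 1 in CD11b+. Setd7, which monomethylates histone and other proteins, had 2 regions in each cell type, and Setd3, the actin histidine methyltransferase, had 1 in Lin- and 2 in CD11b+. Setd4 and Setd6 had no peak in any library.

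Among the demethylases, some genes had peaks in 1 cell type and not in the other. The matching share over all genes is not given here, so this is not read as a trait of the demethylases. Kdm1a, the lysine 4 demethylase LSD1 that is a drug target in leukemia, had 1 peak in each of Lin- replicates 1 to 4 and none elsewhere. Kdm1b had 1 region in each cell type. Kdm2a, a demethylase of lysine 36 that binds CpG islands, had 4, 3, 2, 3, 0 and 1 peaks in Lin- and 3, 4, 1 and 2 in CD11b+. Kdm2b, its paralog in a Polycomb complex, had 0, 1, 0, 3, 0 and 0 peaks in Lin- and 1, 3, 2 and 3 in CD11b+. Kdm7a, a JmjC demethylase with a PHD finger, had 4, 5, 2 and 2 peaks in the CD11b+ libraries and 0 in all 6 Lin- libraries. Its mean RNA-seq level was 1091 in the Lin- table and 1115 in the CD11b+ table. The 7 Kdm7a regions comprised 5 in introns and 2 in the 3′ UTR.

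Of the KDM3 genes, Kdm3b had 8 regions in Lin- and 5 in CD11b+, and Kdm3a had 4 in Lin- and none in CD11b+. The KDM4 genes, demethylases of lysines 9 and 36 of histone H3, had few peaks, with 7 over all libraries in each cell type. Kdm4a accounted for 5 in each, Kdm4c was bound in Lin- alone and Kdm4b in CD11b+ alone. The KDM5 genes, demethylases of lysine 4 of histone H3, had 15 regions in Lin- and 3 in CD11b+. The X-linked Kdm5c had 2, 3, 4, 2, 0 and 1 peaks in Lin- and 1, 1, 1 and 0 in CD11b+, and Kdm5a was bound in Lin- alone. Kdm5b had 3 regions in Lin- and 1 in CD11b+. That CD11b+ region (chr1:134611012-134611050) was called in all 4 CD11b+ libraries, and at the same coordinates in 1 Lin- library. The KDM6 genes remove the Polycomb mark on lysine 27 of histone H3. Kdm6a, the X-linked gene also called UTX, had 2, 2, 1, 1, 0 and 1 peaks in Lin- and none in CD11b+, and Kdm6b, also called JMJD3, had 4, 3, 3, 3, 1 and 1 peaks in Lin- and 2, 1, 1 and 2 in CD11b+. Besides Setd4 and Setd6, the genes with no peak in any library were Kdm4d, Kdm5d, Kdm8 and Kdm6bos, an antisense RNA to Kdm6b. The 5 genes bound in Lin- alone had higher means in the Lin- table, at 3156 against 740.3 for Kdm1a, 3143 against 978 for Kdm3a, 1338 against 813 for Kdm4c, 4310 against 1377 for Kdm5a and 3630 against 1025 for Kdm6a, in tables normalized separately. This order was not particular to them. Of the genes that the symbol rule gave, only Kdm7a had a lower mean in the Lin- table, at 1091 against 1115. Kdm4b, bound in CD11b+ alone, was also higher in the Lin- table, at 1693 against 586. The part of level in the binding of these genes was not tested. The highest mean among the 6 genes with no peak was that of Setd6, at 363 normalized counts in Lin- and 190.1 in CD11b+.

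**Figure D3:**
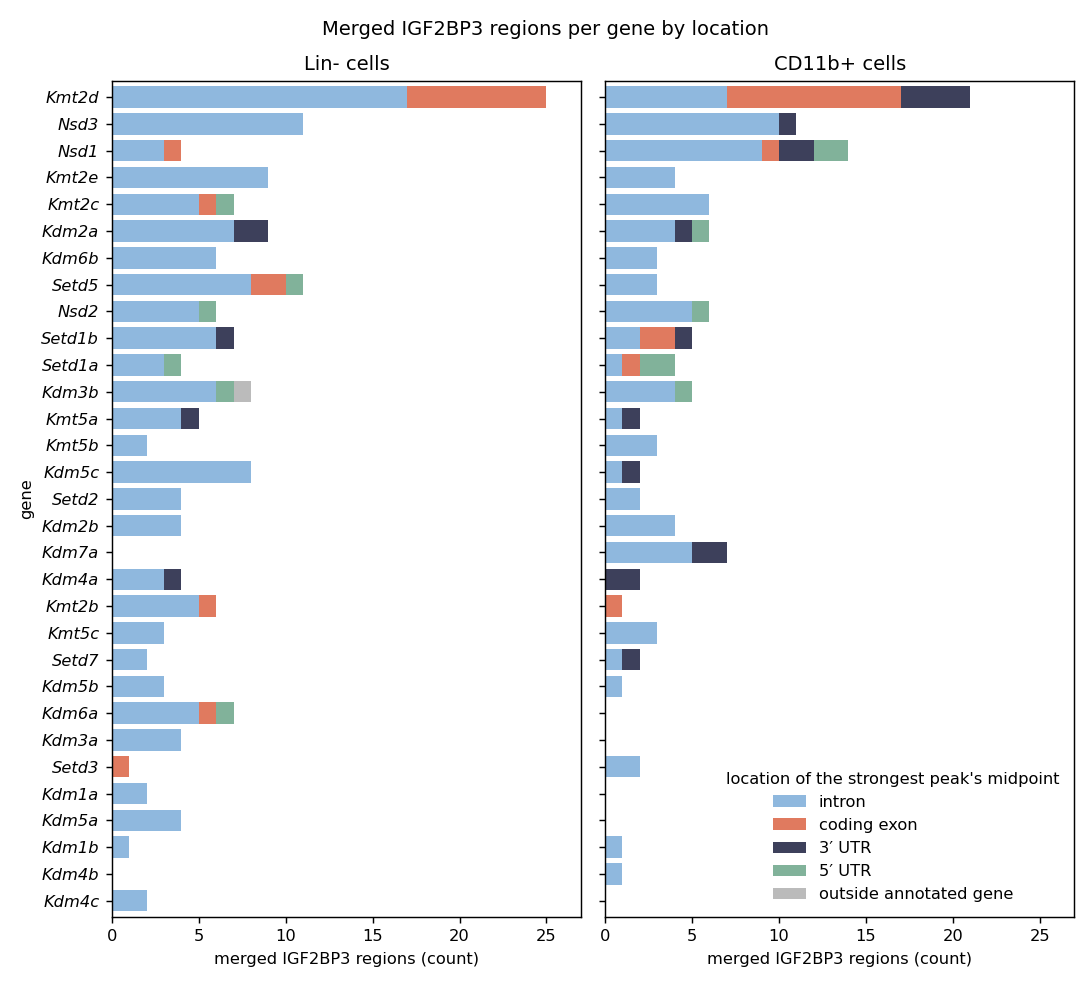
Merged IGF2BP3 regions on each bound gene (bars, in counts) in Lin- (left) and CD11b+ cells (right), colored by where the midpoint of the region's strongest peak lay in the annotation. Intron regions (142 of 169 in Lin- and 83 of 121 in CD11b+) outnumber the other locations, and 3′ UTR regions number 5 in Lin- and 16 in CD11b+.

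Of the 281 Lin- peaks on the 37 genes, 175 crossed the edge of an exon. Over the biological replicates, 62.1% ± 18.5 (SD, n = 3) of the peaks on the 37 genes reached from an exon into the neighboring intron, against 11.0% ± 9.19 (n = 2) in CD11b+. By library these shares were 79.7%, 42.9%, 63.8%, 80.0%, 37.0% and 60.0% in Lin- replicates 1 to 6, and 4.55%, 17.5%, 4.44% and 22.2% in CD11b+ replicates 1 to 4. All 6 Lin- libraries were above all 4 CD11b+ libraries, with Lin- replicates 2 and 5 lowest among the Lin- libraries. The same ordering held for the peaks of all other genes, at 39.0% ± 14.0 in Lin- and 8.56% ± 0.705 in CD11b+, so it was not particular to these 37 genes. In the size-matched inputs, over all genes, 0.58% to 2.30% of peaks in Lin- and 0.48% to 0.71% in CD11b+ crossed such a boundary. Each of the 29 genes bound in Lin- had at least 1 peak of this kind, and in CD11b+ 11 of 26 did. For all 24 genes with peaks in both cell types, the share was higher in Lin-. Some of these shares rest on 1 peak (Kdm1b in each cell type, Setd3 in Lin- and Kmt2b in CD11b+). The matching gene counts over all other genes are not given here. All 15 Kdm6b peaks in Lin- crossed a boundary, as did 16 of 18 on Kmt2e, 14 of 18 on Kmt2c and 11 of 12 on Kdm5c. Low shares in Lin- were those of Kmt5a (3 of 10), Kdm3b (3 of 11) and Kdm4a (1 of 5).

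Most of these Lin- peaks crossed the 3′ splice site, the end of an intron, with 136 of 281 peaks doing so and 37 crossing a 5′ splice site. By midpoint, 79.4% ± 19.0 of Lin- peaks on the 37 genes fell in introns (n = 3), and 68.2% ± 17.6 of those lay within 100 nt of a 3′ splice site. In CD11b+ the intron share was 68.3% ± 15.1 (n = 2), and 16.6% ± 4.84 of the intron peaks lay that close, or 9.04% without Kmt2d. All other genes gave 51.9% ± 19.3 and 13.5% ± 2.20 for the same measure. Their intron shares had the opposite order of the cell types, at 72.9% ± 11.7 in Lin- and 81.5% ± 4.70 in CD11b+. The median distance from an intron peak on the 37 genes to the 3′ splice site was 24 nt in Lin- and 2747 nt in CD11b+. Over all other genes it was 80 nt and 3562.5 nt. Of all intron bases of the genes bound in Lin-, 3.80% lie within 100 nt of a 3′ splice site. Because so many peaks straddle an exon edge, their class depends on how it is assigned. With any overlap with an exon counted, the intron share in Lin- fell to 21.2% and the coding exon share rose from 8.48% to 65.1%, whereas in CD11b+ the coding exon share went from 9.45% to 18.0%.

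Of the 10 named Lin- sites, the 8 in introns all lay at a splice site, and their sequences are shown for the exon edge that the peaks cross. Each run is the genome sequence of NCBI's GRCm38.p6 on the strand of the gene, with 20 intron bases in lower case and 10 exon bases in capitals. The Kmt2e site (chr5:23492248-23492277, plus strand) was called in all 6 Lin- libraries, with 13, 13, 20, 8, 5 and 31 reads and a smallest CLIPper p of 2.4e-33. The Kmt5b site (chr19:3804794-3804823, plus strand) was also called in all 6, with 4, 22, 3, 8, 11 and 3 reads. The Kmt2d (chr15:98854415-98854444, minus strand), Kdm5c (chrX:152267063-152267092, plus strand) and Kdm6b (chr11:69401821-69401850, minus strand) sites were each called in 5 libraries, and the Kdm2a (chr19:4328250-4328279, minus strand) and Setd2 (chr9:110553083-110553112, plus strand) sites in 4. These 7 are 3′ splice sites. The Kmt2c site (chr5:25329427-25329456, minus strand), called in 5 libraries, is a 5′ splice site, and its exon bases come first. The Kdm6b site lies within the span of Kdm6bos, which is on the opposite strand.
Kmt2e: ttcaaatttacattccttagACAAGAGAAG
Kmt5b: ctcttttggacatttttcagATTGCAGACC
Kmt2d: tctctgcccctgcgccccagGGAGCGCGGG
Kdm5c: ccttcctgctctttctccagGCCTGGAAGA
Kdm6b: tgtgatttttgccccagcagCAGTGCACCG
Kdm2a: tgatctttgtctttttgtagCCCAGACTGC
Setd2: tatgtaattgtacccaatagGAAGAAGAAC
Kmt2c: GTCACAGATGgtaaaatacttaccctacat

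Of the 10 named CD11b+ sites, 5 held a CA or TG repeat at the summit of the strongest peak, and 0 of the 10 named Lin- sites did. These 5 and Setd3, as 1 of those without, are shown as 30 bases around that summit, on the strand of the gene, with the hexamers of alternating C and A or T and G in capitals (overlapping matches joined). All come from NCBI's GRCm38.p6. The first 4 are the 3′ UTR of Kmt5a (chr5:124460781-124460810, plus strand), introns of Setd2 (chr9:110571668-110571697, plus strand) and Kdm5b (chr1:134611015-134611044, plus strand), and the 3′ UTR of Kdm4a (chr4:118137705-118137734, minus strand). The other 2 are introns of Kdm2a (chr19:4397474-4397503, minus strand) and Setd3 (chr12:108142179-108142208, minus strand). The Setd2 site held 13, 9, 22 and 18 reads in the 4 CD11b+ libraries, the Kdm5b site 8, 14, 5 and 8, the Kdm4a site 10, 10, 11 and 6, and the Kdm2a site 6, 16, 6 and 23. The Setd3 region holds a CA hexamer outside the bases shown, and was called in replicates 1 to 3 with 29, 6 and 17 reads. The Kmt5a, Kdm4a and Kdm5b regions overlapped Lin- regions, which were called in 3, 2 and 1 Lin- libraries, so they are not sites of CD11b+ alone. A named Lin- site had to be called in 3 biological libraries and a named CD11b+ site in 2, so the 2 lists were not picked equally strictly.
Kmt5a: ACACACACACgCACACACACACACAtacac
Setd2: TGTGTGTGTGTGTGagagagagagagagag
Kdm5b: gtTGTGTGTGTGTTGTGTGTGTGTGTGTGT
Kdm4a: ttgagaaTGTGTGTGTGggtgtgcaagtac
Kdm2a: tcTGTGTGcgggtgtgggggagagagagag
Setd3: gggcagacagacagacagacacagagagag

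The CA hexamers (ACACAC or its shift by 1 base, CACACA) were searched on the strand of the gene. They were present in 2.13% ± 0.67 of Lin- peaks on the 37 genes (n = 3) and in 6.78% ± 5.30 of CD11b+ peaks (n = 2), against 7.02% ± 2.23 and 14.7% ± 8.16 over all other genes. The biological CD11b+ replicates were at 3.03% and 10.5%, farther apart than the means of the cell types, and with technical replicates the cell types overlapped (0% to 3.70% in Lin-, 2.22% to 11.1% in CD11b+). The TG hexamers (TGTGTG or GTGTGT) on the same strand, chosen after the sequences above had been seen, were in 2.95% ± 3.73 of Lin- and 23.4% ± 11.6 of CD11b+ peaks. By library they were in 1.69%, 7.14%, 0%, 5.00%, 7.41% and 6.67% of the Lin- peaks and in 15.2%, 31.6%, 22.2% and 33.3% of the CD11b+ peaks, so the libraries of the cell types did not overlap. The share of 0% was 0 of 69 peaks in Lin- replicate 3, so few peaks stand behind each value. Over all other genes the TG hexamers were in 6.51% ± 0.323 and 22.7% ± 3.43, and in the inputs in 0.87% to 2.29% and 0.95% to 1.74% of all peaks. Among windows of 50 bases tiled over the spans of the 37 genes, 2.44% hold a CA hexamer and 4.64% a TG hexamer. Windows of that length centered on the peaks gave a TG share of 4.59% in Lin- and 23.4% in CD11b+, and a CA share of 2.13% and 5.14%.

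**Figure D4:**
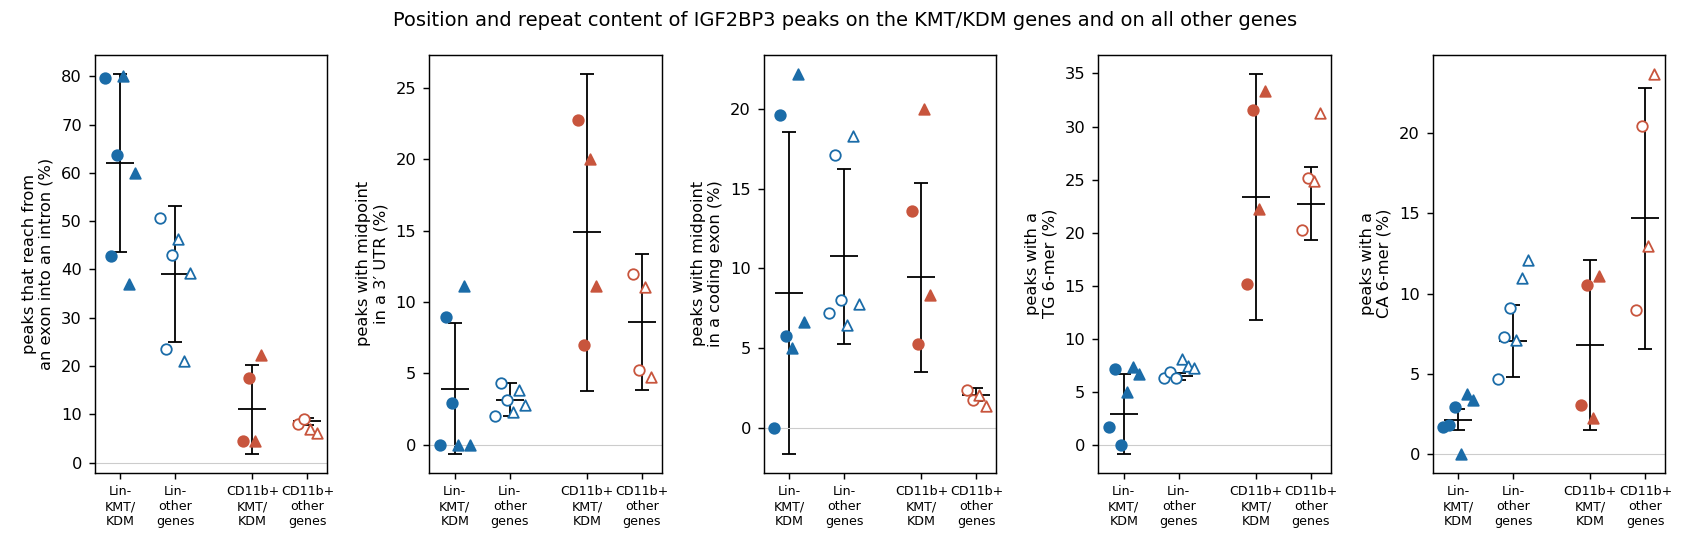
Shares of peaks in percent, from left to right, that reach from an exon into an intron, lie in a 3′ UTR, lie in a coding exon, or hold a TG or a CA hexamer, for the 37 genes (filled) and all other genes (open) in Lin- (blue) and CD11b+ (red). Each point is 1 library, circles biological and triangles technical, and bars are the mean ± SD over biological replicates. In the first panel the filled blue points sit at 37.0% to 80.0% and the filled red points at 4.44% to 22.2%.

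Peaks in the 3′ UTR made up 3.94% ± 4.55 of Lin- and 14.9% ± 11.1 of CD11b+ peaks on the 37 genes, against 3.15% ± 1.16 and 8.58% ± 4.77 elsewhere. The CD11b+ replicates differed, at 22.7% and 7.02%, and the latter lies below the 8.93% of Lin- replicate 2, so the cell types overlapped. The 3′ UTR peaks in CD11b+ were spread over 10 genes. Coding exon peaks were a larger share on these genes in CD11b+ (9.45% ± 5.92) than on all other genes (2.07% ± 0.414), and 18 of the 24 coding peaks over all CD11b+ libraries were on Kmt2d. Without Kmt2d the share was 2.96%. In Lin- Kmt2d held 16 of 25 coding peaks, and without Lin- replicate 2 the coding share was 2.90%. So 1 gene set most of the coding share of the list.

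For each gene, the peaks per 1000 library peaks were compared between the 3 biological Lin- and the 2 biological CD11b+ libraries by a two-sided exact permutation test over all 8193 genes with a peak. The smallest p that the 10 possible splits allow is 0.1, 1204 genes reached it, 0 genes had an unadjusted p under 0.05, and the smallest Benjamini-Hochberg adjusted p was 0.680. The comparison can therefore only sort genes by whether the libraries of the 2 cell types overlap. CD11b+ was above Lin- in every biological library for 11.4% of these genes and for 4 of the 31 methyltransferases and demethylases tested, namely Kdm2b, Kdm7a, Nsd1 and Setd3. Lin- was above CD11b+ for 9.47% of the genes and for 6 of the 31, namely Kdm1a, Kdm5c, Kdm6a, Kdm6b, Kmt2b and Setd5. Kdm7a averaged 0.483 peaks per 1000 in CD11b+ with 0 in Lin-, and Kmt2b 0.279 in Lin- with 0 in CD11b+. Setd5 averaged 0.471 in Lin- against 0.158 in CD11b+, and Kdm6b 0.396 against 0.167. Without scaling to the library total 8 genes did not overlap, and Kdm2b and Setd5 were no longer among them. With the technical replicates included, only Kdm7a and Nsd1 did not overlap, and with peaks of p under 0.001 alone 6 genes did not. Of these 6, 4 are among the 10 named (Kdm7a, Nsd1, Kdm6a and Setd5), and Kmt2c and Nsd2 are not. The count of 10 rose to 17 without Lin- replicate 2 and to 18 without CD11b+ replicate 2. Kmt2d averaged 0.982 in Lin- and 1.23 in CD11b+ (p = 0.6 by the exact permutation test). Fewer cells of a type and less RNA per cell cannot be told apart in these bulk samples.

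A part of the individual regions recurred between libraries. Of the regions on the 37 genes, 34.3% in Lin- and 42.1% in CD11b+ were called in more than 1 library of their cell type, against 38.2% and 42.8% of the regions of all other genes. Regions called in every biological library numbered 11 in Lin-, where 3 libraries had to hold them, and 24 in CD11b+, where 2 had to. The requirement was thus less strict in CD11b+, and the matching counts over all other genes are not given here. The 31 regions that overlapped between the cell types lay in 17 genes and were 18.3% of the Lin- and 25.6% of the CD11b+ regions, against 25.2% and 29.7% for all other genes. They included the Kmt2e splice site, which was called in 3 CD11b+ libraries, the 3′ UTR site of Kmt5a, a 3′ UTR site of Setd1b (chr5:123166259-123166389, 29, 19 and 17 reads in CD11b+ replicates 1 to 3) and a 5′ UTR site of Setd1a (chr7:127777361-127777431) that 5 Lin- and 2 CD11b+ libraries held.

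The number of regions was compared with the RNA-seq level. Across the 37 genes, Spearman's rho between regions and the authors' mean normalized count was 0.86 in Lin- and 0.75 in CD11b+, with rho 0.57 and 0.67 against exon length and 0.29 and 0.29 against gene span. These are descriptions across genes that share the same libraries, and a normalized count itself grows with transcript length. Against the mean per kb of exon, rho was lower, at 0.62 in Lin- and 0.45 in CD11b+. Per kb of exon, the highest Lin- levels were those of Kmt5a (1389 normalized counts per kb), Kmt5c (1200) and Kdm5c (1134), and Kmt2d was at 815. Genes of similar level differed in their number of regions. Nsd1 and Nsd2 had means of 6856 and 7076 in Lin- with 4 and 6 regions, and Setd5 at 7504 had 11. In CD11b+ Kdm7a at 1115 had 7 regions, and Kdm5a at 1377 had none.

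**Figure D5:**
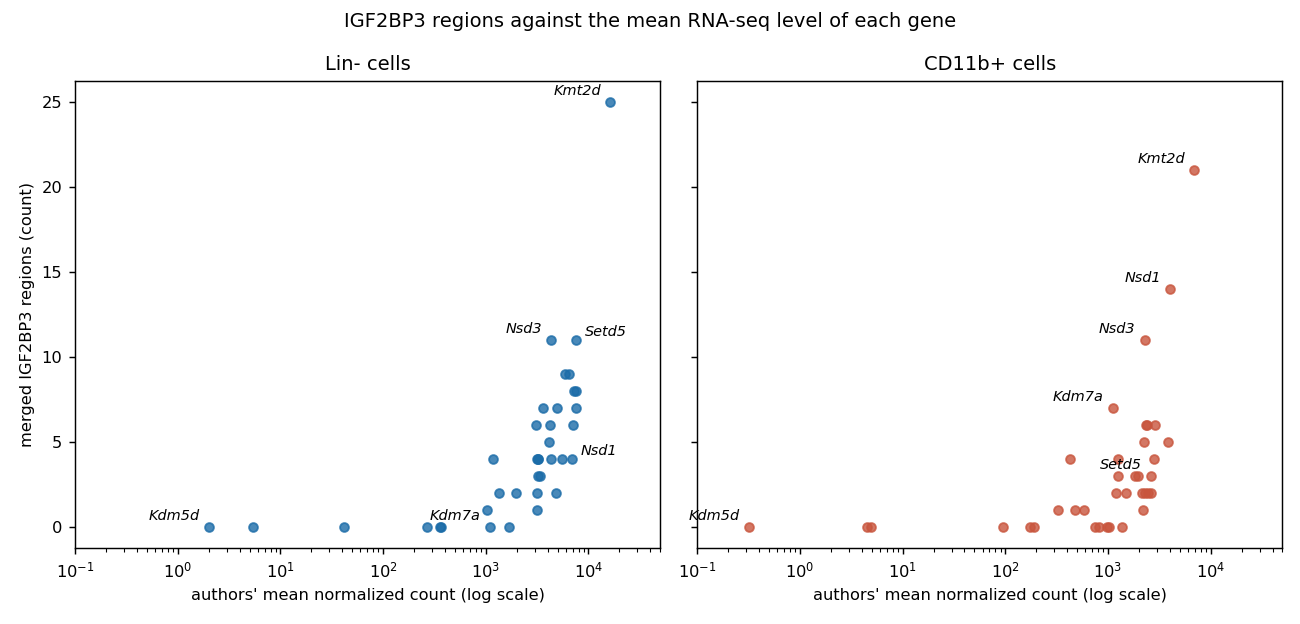
Merged IGF2BP3 regions (vertical axis, counts) against the authors' mean normalized RNA-seq count (horizontal axis, log scale) for the 37 genes in Lin- (left) and CD11b+ (right), 1 point a gene, with 6 genes named. Kmt2d is at the top right of both panels with 25 and 21 regions, and the lowest mean of a gene with a region is 326 (Kdm1b in CD11b+).

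Genes of the same pathways that the symbol rule does not reach were also bound in part. Of 18 other lysine methyltransferases, 11 had a peak in Lin- and 11 in CD11b+, beside the 29.5% and 27.8% of all genes and the 76.5% and 68.4% of genes at a mean of at least 1000. Ezh2, the Polycomb methyltransferase of lysine 27, had 9 regions in Lin- and 4 in CD11b+, Dot1l, the lysine 79 methyltransferase recruited by MLL fusions, had 6 and 1, and Ehmt2 had 8 and 2. Of 9 other JmjC proteins, 3 had a peak in Lin- and 5 in CD11b+, with Jmjd1c at 9 and 6 regions. Of the 12 subunits and cofactors of the KMT2 complexes that both tables list, 11 had a peak in Lin- and 6 in CD11b+. Men1, which encodes the menin protein that tethers MLL to chromatin, had 2 regions in Lin- and none in CD11b+, and Hcfc1 had 12 and 3.

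Peaks of the size-matched inputs on the 37 genes were few, at 0 to 2 in each Lin- input and 1 to 3 in each CD11b+ input, but the inputs held only 217 to 1885 peaks in all. Per 1000 peaks of the library, the 37 genes had a mean of 0.630 peaks in the Lin- inputs against 7.04 in the Lin- eCLIP libraries after filtering. The CD11b+ means were 1.03 in the inputs and 6.11 in the eCLIP libraries. These eCLIP means include the technical replicates, and the biological replicates alone averaged 7.18 in Lin- and 6.71 in CD11b+. The input filter removed 12.4% to 25.9% of all Lin- peaks and 10.8% to 17.3% of all CD11b+ peaks, but 0% to 2.44% of those on the 37 genes in any library. Kdm5d, the Y-linked lysine 4 demethylase, had an intron peak of 4 to 6 reads in all 4 CD11b+ inputs (chrY:933634-933652) and no eCLIP peak, at a mean RNA-seq level of 0.32 in the CD11b+ table. Per the study's methods, donors and recipients of the transplants were female. The origin of this input peak was not tested.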

How the data were processed

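IGF2BP3 eCLIP peaks and RNA-seq gene tables of MLL-Af4 cells were used as deposited. Per the study's methods, eCLIP reads were mapped to mm10, peaks were called in each library with CLIPper, and peaks that overlap a peak of the size-matched input were removed. The lists hold peaks with a CLIPper p-value under 0.05, as deposited. The peak names hold a gene ID, a running number and a further number, which was read as the read count of the peak. The file headers give other deduplication settings for eCLIP than for input libraries. According to the processing notes, the authors used STAR 2.5.3a, Bowtie2 and DESeq2. The deposited gene tables hold a mean normalized count (signal), which the authors computed with DESeq2 over the libraries of a cell type, and columns of fold changes, errors, test statistics, p-values and significance marks of the authors' own comparison, which were not used. WT and KO samples are therefore not compared here.

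A peak belonged to the gene whose Ensembl ID its name holds (37 of 37 IDs matched the GENCODE M21 basic annotation). Its midpoint was classed as coding exon first, then 3′ UTR, 5′ UTR and intron. Peaks were merged when they overlapped by 1 nt. Splice distances used the shortest annotated intron around the midpoint. Sequences came from NCBI's GRCm38.p6. Means ± SD cover biological replicates. Depth is given as peaks per library, since read totals are not in the lists, and counts of peaks carry only counting precision. The permutation p-values measure only the spread between these libraries. A CLIPper p belongs to a single peak of a single library and measures no spread between libraries. Cell types were compared by the two-sided exact permutation test, and p-values were Benjamini-Hochberg adjusted over all genes. These steps were checked on simulated counts. Named genes were the 12 with the most regions in each cell type, those with a peak in each biological library of a cell type, those whose biological libraries did not overlap, and those with no peak. Kdm1b, Kdm3a, Kdm4b, Kdm4c and Kdm5a fall outside this rule and were named after their values were seen, to account for every gene. Named sites were called in every biological library, at most 10 per cell type, ordered by libraries and then p. The genes, lists and rules were chosen with earlier results of these data known. Other thresholds, annotations, filters, libraries and motifs were tried. Python 3.11.15, NumPy 2.4.6, pandas 2.3.3, SciPy 1.17.1, pysam 0.24.0 and matplotlib 3.10.9 were used. The value of 1 marker gene is not reported here.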

Additional observations from a re-analysis of the deposited data

Results flagged for a closer look

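Over the eCLIP libraries of a cell type, biological and technical together, 59 sets of values were screened for a library far from the others, and chance flags about 1 set in 20. One was found. Nsd2 had 0.408 peaks per 1000 library peaks in Lin- replicate 1, the highest of the 6, where the other 5 libraries lay between 0.154 and 0.248. This rests on 3 peaks against 1 or 2.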

How the results depend on the processing

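Over 19 results and 142 alternatives, 128 left the value within 1.5 times (counts) or 1 SD (shares) and 14 did not. The order of the cell types was not part of this score. At a CLIPper p under 0.001, merged regions fell to 78 in Lin- and 63 in CD11b+, non-overlapping genes to 6, and the CA hexamer share in Lin- became 3.61%. Counting any exon overlap gave intron 21.2% and coding 65.1% in Lin-, and intron 59.7% and coding 18.0% in CD11b+. For both shares this reversed the order of the cell types. The 4-mers CACA or ACAC gave 22.2% in Lin- and 17.5% in CD11b+, the reverse of the order with the CA hexamers. Leaving out Kmt2d gave coding 2.96% and a 3′ splice site share of 9.04% in CD11b+. Using all libraries left 2 non-overlapping genes. The alternatives without Kmt2d, those with 50-base windows and all on splice sites, exon boundaries and TG hexamers were chosen after seeing the data.

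With 1 library left out in turn, bound genes ranged from 28 to 29 in Lin- and 25 to 26 in CD11b+, regions from 137 to 166 and 96 to 110, and non-overlapping genes from 12 to 18, with 17 without Lin- replicate 2 and 18 without CD11b+ replicate 2. In Lin- the ranges were 70.8% to 89.6% (intron), 2.90% to 12.7% (coding), 1.45% to 5.91% (3′ UTR), 1.74% to 2.34% (CA), 0.85% to 4.42% (TG), 61.1% to 78.1% (3′ splice site) and 53.3% to 71.7% (exon boundary). In CD11b+ they were 57.6% to 78.9%, 5.26% to 13.6%, 7.02% to 22.7%, 3.03% to 10.5%, 15.2% to 31.6%, 13.2% to 20.0% and 4.55% to 17.5%. The causes were not tested, beyond fewer peaks or libraries entering.

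No paired analysis was possible because nothing in the labels ties a replicate number of cultured Lin- cells to that of the splenic CD11b+ cells. The smallest p that 3 against 2 biological libraries allow is 0.1.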
